A study of Homo sapiens with 12 samples.

Results

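The nuclear-encoded subunits of the respiratory chain and of the ATP synthase were examined in 293T cells that carry a doxycycline-inducible 4EBP1-4A construct. Members were taken by symbol: the NDUFA, NDUFB, NDUFC, NDUFS and NDUFV genes, SDHA to SDHD, the UQCR genes and CYC1, COX4 to COX8, and the ATP5 genes. Of 192 matching symbols, 104 were pseudogenes and were left out, so that 88 of 37858 genes with a symbol remained. All 88 are protein-coding in GENCODE release 44, and 0 lie on the mitochondrial chromosome. They comprise 36 genes of complex I, 4 of complex II, 10 of complex III, 18 of complex IV and 20 of the ATP synthase, here called complex V. NDUFA4 bears a complex I name, but it is now regarded as a complex IV subunit and was counted there. The group in complex V holds the inhibitor ATP5IF1 and the readthrough gene ATP5MF-PTCD1, and COX7A2L is a supercomplex factor rather than a fixed subunit.

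The study profiled 6 samples of 1 line, a pool sorted for GFP after lentiviral transduction. 293T is a human embryonic kidney line with the SV40 large T antigen, and every sample, the DMSO controls included, carried the construct. No sample without the construct received doxycycline. An effect of doxycycline itself therefore cannot be told apart from an effect of 4EBP1-4A in any comparison here. In all, 3 samples received DMSO and 3 received doxycycline at 2 mg/mL, all were treated with cycloheximide for 10 min before lysis, and each gave 1 total RNA library (RNA-seq) and 1 library of ribosome-protected fragments (Ribo-seq, RF reads). The sample labels and methods give 12 h of treatment, the series text gives 2 h and the study's account of its results a longer time than either, so the duration is uncertain. 4EBP1-4A is 4EBP1 with its regulatory phosphorylation sites changed to alanine, so that it keeps binding the cap-binding factor eIF4E and holds back cap-dependent translation. The labels number the replicates without saying whether they were separate cultures. A figure legend of the study calls them biological replicates, but how separately they were grown is not described. The p-values therefore measure only the spread between these samples, which may be partly technical.

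Complex I (NADH dehydrogenase) and complex II (succinate dehydrogenase) pass electrons to ubiquinone, complex III passes them to cytochrome c, and complex IV (cytochrome c oxidase) passes them to oxygen. Complexes I, III and IV pump protons, and complex V makes ATP from the gradient. Except for complex II, each joins mitochondrially encoded subunits to nuclear-encoded ones. Many of the nuclear-encoded subunits are small, with mRNAs that are short and abundant in most tissues.

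Reads on genes numbered 45887231 to 57824136 in 5 of the RNA-seq libraries and 21687906 in doxycycline replicate 3, which stood apart. In that library 88.4% of all counted reads were entered as having more than 1 alignment and 5.94% fell on genes. In the others these shares were 54.9% to 69.9% and 19.7% to 30.8%. The sources do not say whether a read with several alignments was counted once or once per alignment. Comparisons are therefore given with and without it. Reads on EIF4EBP1, which do not separate the construct from the cells' own gene, stood at 153 to 168 CPM (reads scaled to a common library size) in the DMSO libraries and at 257 to 285 CPM in the doxycycline libraries, without overlap. Its log2 fold change was 0.79 with an adjusted p of 0.303, and 0.76 with an adjusted p of 1.08e-05 without doxycycline replicate 3. All 8 genes listed as 293T markers were detected, with VIM the highest at 757 to 982 CPM. The adult kidney tubule markers UMOD and AQP2 and the skin markers KRT5 and KRT14 had 0 reads in every RNA-seq library, while the tubule receptor LRP2 was at 24.6 to 29.3 CPM and the skin keratin KRT10 at 2.35 to 5.63 CPM.

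Levels were compared between genes per length, as RPKM (CPM per kilobase of the GENCODE canonical transcript) in the DMSO libraries. The 81 members with at least 10 reads in at least 3 RNA-seq libraries spanned 0.410 to 401 RPKM. Complex IV had the highest median, 148 RPKM over 12 genes, followed by complex V with 87.4 over 19, complex III with 79.2 over 10, complex I with 60.4 over 36 and complex II with 48.8 over 4. The highest members were ATP5F1B, the catalytic beta subunit of the ATP synthase, at 401 RPKM, COX4I1, the largest nuclear-encoded subunit of complex IV, at 333 ± 13.1 (SD, n = 3), and NDUFA1, a small membrane subunit of complex I, at 283. With the union of all annotated exons as the length, the order of the complexes was IV, III, II, V and I, with medians of 49.0, 44.7, 25.7, 23.0 and 16.8 RPKM, so the order below complex IV depends on the length used. The order of genes does too: with union exons ATP5F1B, at 316 RPKM, and NDUFA1, at 283, were the highest, and COX4I1 was at 52.8.

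**Figure D1:**
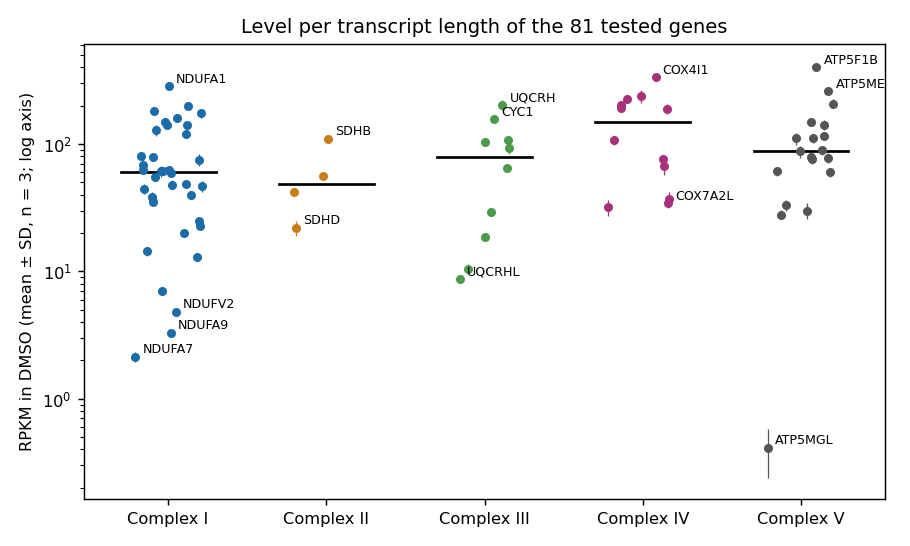
Levels of the 81 tested members in the DMSO libraries. Each point is 1 gene (mean ± SD, n = 3) on a log axis in RPKM, grouped by complex, and the bars are the medians, which run from 48.8 in complex II to 148 in complex IV.

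Some members share sequence with another gene, where counts of uniquely aligned reads are uncertain. Of the 50-base words of the canonical transcript, 89.4% in NDUFV2, 75.9% in NDUFA7 and 53.7% in UQCRHL also occur in a transcript of another gene. NDUFV2, like NDUFV1 a subunit of complex I, was at 4.83 RPKM against 141 for NDUFV1, and NDUFA7 was at 2.13. UQCRHL is an intronless copy of UQCRH, with 8.70 RPKM against 202. Other members that share as much were not low, such as NDUFA13 with 82.4% and 55.1 RPKM and SDHA with 73.6% and 41.7 RPKM, and the part of sharing in these levels was not tested. In all, 9 members shared at least 50% of their words, and 57 of the 88 shared under 5%. The 104 pseudogene rows held 1273 RNA-seq reads in all, against 1993666 on the members.

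Complex IV has several subunits with a ubiquitous and a tissue-restricted isoform, and in these cells the reads fell on the ubiquitous one. COX4I1 had 8329 to 13971 reads per library, and COX4I2, the lung and oxygen-responsive isoform, had 1 read in the 6 libraries together. COX6A1 had 8618 reads in all and the muscle isoform COX6A2 had 1. For the muscle isoform COX7A1 the sum was 2 reads, against 21142 for COX7A2. The testis isoforms COX6B2, COX7B2 and COX8C had 39, 0 and 14 reads, against 26065, 21684 and 29048 for COX6B1, COX7B and COX8A. In a single library 3 reads correspond to 0.0519 to 0.138 CPM, and a count of 0 allows up to that level (counting error only). These 6 genes and the readthrough gene ATP5MF-PTCD1, with 13 reads, made up the 7 members that did not enter the tests. The c ring of the ATP synthase, by contrast, is encoded by 3 genes for 1 identical mature protein, and all were used: ATP5MC2 stood at 207 ± 16.7 RPKM, ATP5MC1 at 89.2 ± 6.75 and ATP5MC3 at 60.9 ± 4.75 (SD, n = 3). This order turned with union exons as the length, where ATP5MC3 was at 40.6 RPKM, ATP5MC2 at 33.5 and ATP5MC1 at 22.04.

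Doxycycline was first compared with DMSO over all 6 libraries. Most members had lower values with doxycycline, but no member passed the test. By the quasi-likelihood F-test of edgeR, adjusted over 20552 genes, 0 of 81 members were called lower and 0 higher, where 0% of all genes were called lower and 0% higher. The members' adjusted p-values ran from 0.303 to 0.933. Before adjustment, 8 members with a p under 0.05 were lower and 1 was higher, against 4.3% and 10.7% of all genes. The other tools run on these libraries, DESeq2's Wald test and edgeR's likelihood ratio test, called 0 members as well, while limma voom with sample quality weights called 36 lower and 8 higher, where it called 18.1% and 18.5% of all genes.

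The fitted values leaned to one side. The median log2 fold change of the members was -0.24, against 0.0029 over all genes tested, and 62 of 81 members were below 0. It was -0.51 for complex IV, -0.34 for complex V, -0.19 for complex III, -0.14 for complex I and -0.057 for complex II. In 38 members all 3 doxycycline libraries lay below all 3 DMSO libraries, where this held for 18.9% of all genes, and in 7 they lay above, where the background was 19.7%. Doxycycline replicate 3 was the lowest of the 6 libraries in 57 members, against 41.2% of all genes.

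The members' levels by library show this directly. Relative to the mean of the DMSO libraries, the median log2 level of the 81 members was 0.076, -0.097 and 0.022 for DMSO replicates 1 to 3. With doxycycline it was -0.14 in replicate 1, -0.13 in replicate 2 and -0.59 in replicate 3. Doxycycline replicates 1 and 2 lie just below DMSO replicate 2, and replicate 3 lies far below all others. In complex IV the medians were 0.099, -0.14 and 0.036 with DMSO and -0.22, -0.33 and -1.12 with doxycycline, and in complex V they were 0.092, -0.12 and 0.020 with DMSO and -0.15, -0.23 and -0.81 with doxycycline. The reads of all members summed to 7152 to 7837 CPM with DMSO and to 7013, 7050 and 5838 CPM with doxycycline.

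**Figure D2:**
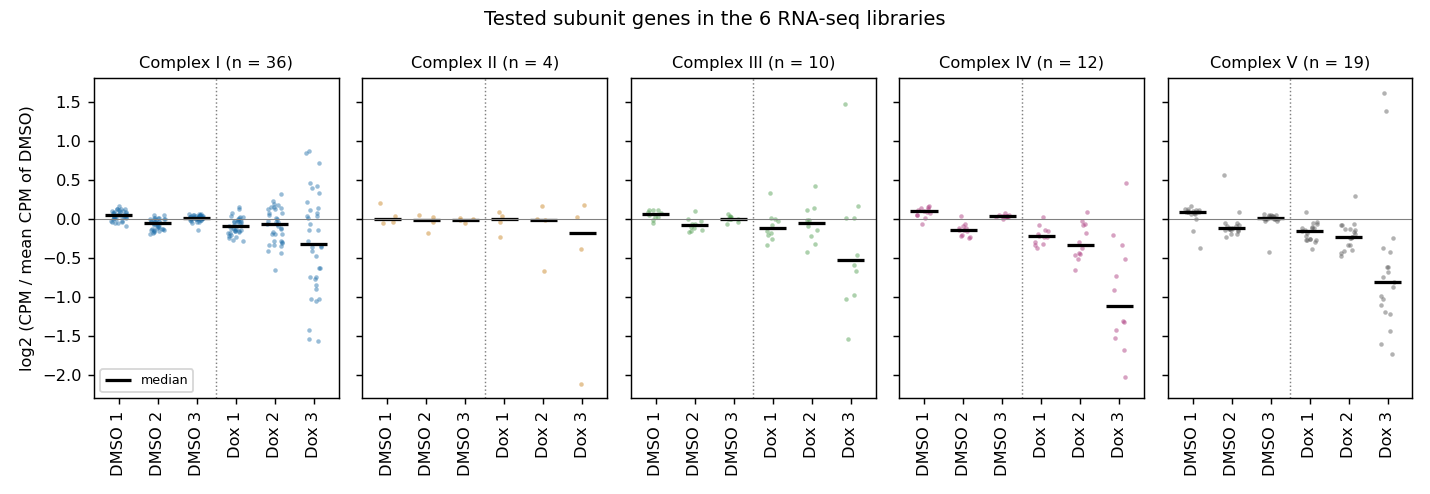
Each tested member in the 6 RNA-seq libraries, by complex. Points are genes, as log2 of the CPM over the mean CPM of the DMSO libraries, and black bars are medians. Doxycycline replicate 3 is both lower and more widely spread, and complex IV has the lowest median there, at -1.12.

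Without doxycycline replicate 3 the lower values of a subset of members passed the test. Among 81 tested members, 21 fell and 0 rose, while 3.29% of all 20459 genes tested were called lower and 3.76% higher. The 21 calls are 25.9% of the members tested. By complex they were 7 of 12 in complex IV (58.3%), 7 of 19 in complex V (36.8%), 1 of 4 in complex II, 2 of 10 in complex III and 4 of 36 in complex I (11.1%). The changes were modest, with log2 fold changes between -0.51 and -0.24 and a median fold of 0.790. In 20 of the 21, both doxycycline libraries lay below all DMSO libraries, the exception being COX6A1. The same held for 38 of the 81 members, and the share of all genes is not given here. As the calls come from these same libraries, this order is no further support for them. The median over all 81 members was -0.13, against -0.00057 over all genes, and 60 members were below 0. These calls rest on 2 doxycycline libraries, and a fit without either has 1 library in that group, so no count is given for it. Leaving out DMSO replicate 1, 2 or 3 as well gave 6, 33 or 11 calls. The share of all genes called in those fits is not given here. These counts therefore show only that the calls depend on single libraries.

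**Figure D3:**
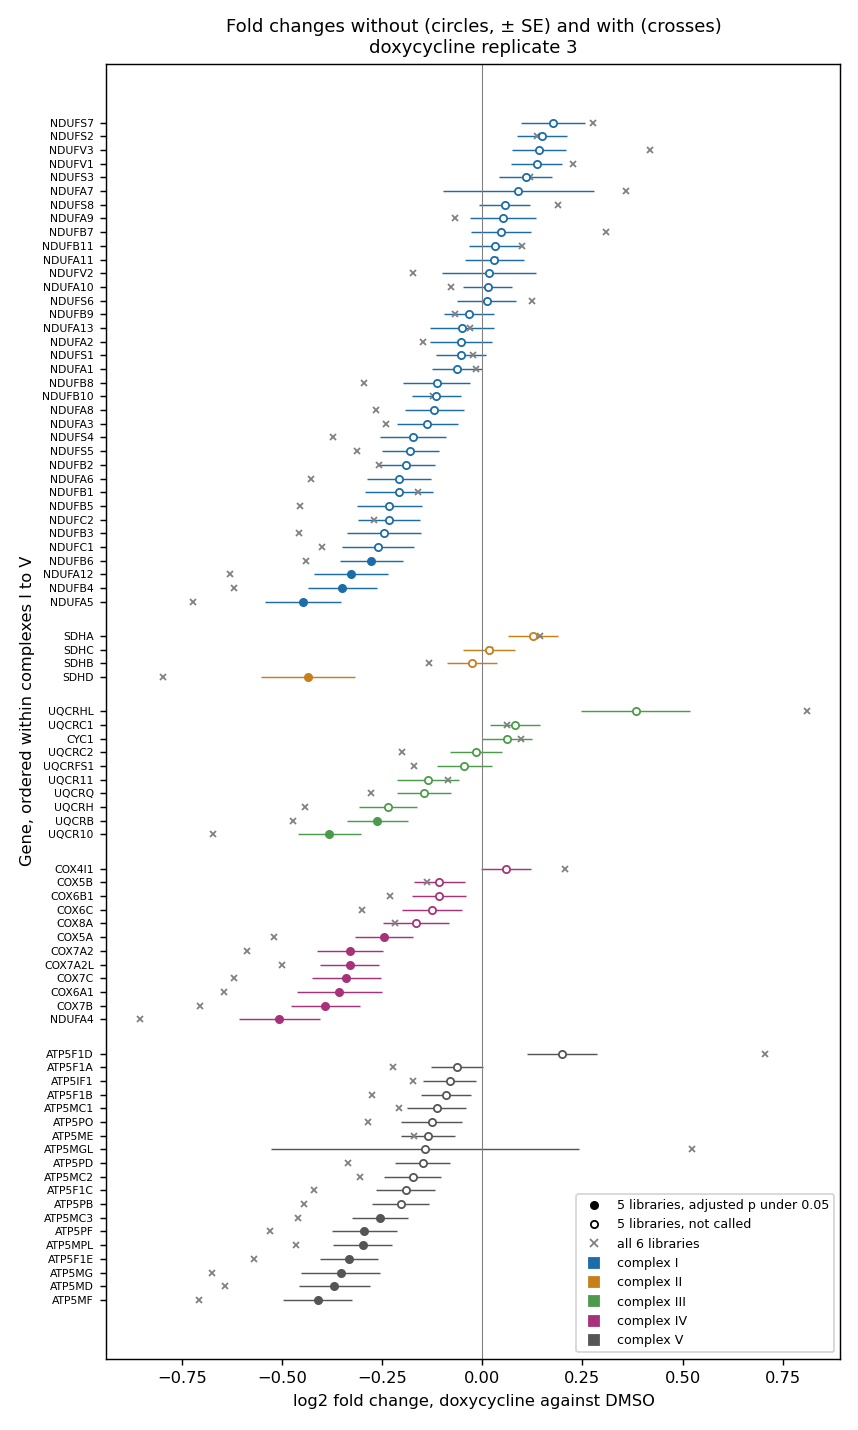
Fold changes of the 81 tested members, doxycycline against DMSO. Circles are log2 fold changes ± SE in the 5 libraries without doxycycline replicate 3, filled where the adjusted p is under 0.05 (21 genes, all below 0), and crosses are the values with all 6 libraries.

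Complex IV held the largest change. NDUFA4 (chromosome 7 of GRCh38, from 10931943 to 10940153, minus strand) was at 72.3, 54.6 and 67.0 CPM in DMSO replicates 1, 2 and 3 and at 50.1, 40.9 and 15.7 CPM in doxycycline replicates 1, 2 and 3. The groups do not overlap, and DMSO replicate 2 is nearest to the doxycycline libraries. Its log2 fold change without doxycycline replicate 3 was -0.51, with a standard error of 0.10 and an adjusted p of 0.0133, and with all 6 libraries it was -0.85 with an adjusted p of 0.303. COX7B, a small transmembrane subunit, was at 101, 78.8 and 93.9 CPM with DMSO and at 72.7, 66.5 and 28.5 CPM with doxycycline, again with no overlap. It fell by 0.39 on the log2 scale without doxycycline replicate 3 (adjusted p = 0.0180). COX7C had 163, 129.6 and 154 CPM with DMSO and 126, 109 and 55.2 CPM with doxycycline.

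COX7A2 and the related COX7A2L, which joins complex IV to complex III, both fell. COX7A2L was at 81.1, 71.2 and 82.5 CPM with DMSO and 63.7, 60.7 and 41.4 CPM with doxycycline, and its log2 fold change was -0.33 (adjusted p = 0.0181). For COX7A2 it was also -0.33 (adjusted p = 0.0259). COX6A1 was called at an adjusted p of 0.0481, although its value in doxycycline replicate 1, 30.9 CPM, was above that in DMSO replicate 2, 30.5. COX5A, the other call, had -0.24. Not called was COX4I1, which was at 243, 261 and 258 CPM with DMSO and at 259, 271 and 349.8 CPM with doxycycline (log2 fold change 0.059, adjusted p = 0.592). COX5B, a zinc-binding subunit, was at 126 to 136 CPM with DMSO and 115 to 126 with doxycycline, with -0.11 and an adjusted p of 0.307. COX8A and COX6B1 did not pass the test either, with -0.16 and -0.11.

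In complex V the calls fell on subunits of the membrane sector and the stalk. ATP5MF, the f subunit of the membrane sector, was at 53.0, 42.8 and 51.2 CPM with DMSO and at 37.5, 36.3 and 16.0 CPM with doxycycline, without overlap. It fell by 0.41 on the log2 scale, with a standard error of 0.086 and an adjusted p of 0.0151. ATP5F1E, the epsilon subunit of the central stalk, was at 109, 93.1 and 101 CPM with DMSO and at 83.5, 76.7 and 43.2 CPM with doxycycline, a log2 fold change of -0.33 (adjusted p = 0.0180). ATP5MD, a small membrane subunit, fell by 0.37 (adjusted p = 0.0237). The remaining calls were ATP5MG, the g subunit, with -0.35, ATP5MPL with -0.30, ATP5PF, the coupling factor 6 of the peripheral stalk, with -0.29, and ATP5MC3 with -0.25. Of the 3 genes for the c subunit, ATP5MC3 was called, while ATP5MC2 (-0.17, adjusted p = 0.135) and ATP5MC1 (-0.11, adjusted p = 0.356) were not, and a difference among the 3 was not tested.

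The subunits of the catalytic head gave no call. ATP5F1B was at 738, 672 and 708 CPM with DMSO and at 657, 669 and 423 CPM with doxycycline, with a log2 fold change of -0.091 (adjusted p = 0.378) without doxycycline replicate 3. ATP5F1A, the alpha subunit, was at 484, 428 and 455 CPM and at 437, 436 and 298 CPM (-0.063, adjusted p = 0.580). ATP5F1D, the delta subunit of the central stalk, had the highest fitted value of the complex: 29.5, 35.1 and 34.1 CPM with DMSO and 35.1, 40.5 and 86.0 CPM with doxycycline. Its log2 fold change was 0.71 with all libraries and 0.20 without doxycycline replicate 3 (adjusted p = 0.155). With a GC content offset, described with the GC values, it was 0.067 with all libraries and -0.054 without doxycycline replicate 3, at a transcript GC content of 69.6%. ATP5MGL, a close relative of ATP5MG with 0.244 to 0.486 CPM in DMSO, was too low to read a direction: 0.52 with all libraries and -0.14 without doxycycline replicate 3.

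In complex I the 4 calls were accessory subunits. NDUFA5, on the matrix arm, was at 39.7, 35.8 and 39.4 CPM with DMSO and 31.7, 24.4 and 13.1 CPM with doxycycline, a log2 fold change of -0.45 with a standard error of 0.095 (adjusted p = 0.0159). NDUFB4, in the membrane arm, was at 43.5, 35.8 and 40.5 CPM with DMSO and 32.7, 30.0 and 14.9 CPM with doxycycline (-0.35, adjusted p = 0.0257). NDUFA12 fell by 0.33 and NDUFB6 by 0.28. The core subunits NDUFV1 and NDUFS1 did not pass. NDUFV1, which binds NADH, was at 213, 222 and 227 CPM with DMSO and at 232, 253 and 289.8 CPM with doxycycline, with no overlap but an adjusted p of 0.183 (log2 fold change 0.14). NDUFS1, with its iron-sulfur clusters, was at 226 to 239.7 CPM and 218 to 237 CPM, overlapping (-0.054, adjusted p = 0.630). NDUFV3, an accessory subunit, was at 70.3, 75.6 and 78.4 CPM with DMSO and 82.1, 82.9 and 135 CPM with doxycycline, and NDUFA7, at 1.12 to 2.27 CPM over all libraries, was next to it in the 6-library fit (log2 fold changes 0.42 and 0.36, neither called). Without doxycycline replicate 3 the log2 fold changes were 0.14 and 0.089.

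Complex II, which has no mitochondrially encoded subunit, split among its 4 genes. SDHD, a membrane anchor, was at 34.0, 25.9 and 28.3 CPM with DMSO and at 25.0, 18.5 and 6.76 CPM with doxycycline, without overlap. It fell by 0.43 on the log2 scale (standard error 0.12, adjusted p = 0.0347). SDHA, the flavoprotein with the active site, was at 109, 114 and 113 CPM and at 119, 126 and 127 CPM, above the DMSO libraries throughout but not called (0.13, adjusted p = 0.207). SDHB, the iron-sulfur subunit (-0.025), and SDHC, the other anchor (0.016), were near 0. The ratio of SDHA to SDHD counts was 3.21, 4.41 and 4.01 in the DMSO libraries and 4.78, 6.77 and 18.8 in the doxycycline libraries. SDHA shares 73.6% of its 50-base words with other transcripts, and SDHD shares 29.8%.

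In complex III the calls were UQCR10 and UQCRB, which do not carry electrons. UQCR10 was at 92.6, 76.2 and 87.5 CPM with DMSO and 67.5, 63.6 and 29.4 CPM with doxycycline (-0.38, standard error 0.078, adjusted p = 0.0143). UQCRB, a small subunit, was at 95.2, 79.4 and 89.3 CPM and at 76.2, 70.6 and 43.0 CPM (-0.26, adjusted p = 0.0450). The electron carriers were not called. CYC1, cytochrome c1, was at 189, 183 and 187 CPM with DMSO and 186, 203 and 209 CPM with doxycycline (0.063, adjusted p = 0.569), and the Rieske protein UQCRFS1 was at 55.4 to 60.1 CPM and 41.8 to 57.3 CPM (-0.045, adjusted p = 0.729). UQCRHL had 2.30 to 2.58 CPM with DMSO and 3.03, 3.23 and 6.68 CPM with doxycycline, and its p of 0.031 was the 1 unadjusted rise of the members in the 6-library test (log2 fold change 0.81, adjusted p = 0.303).

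A list of 10 core members, 2 of each complex, had 0 calls and a median log2 fold change of -0.035 without doxycycline replicate 3. For complex IV it holds COX4I1 and COX5B, since the catalytic subunits there are mitochondrially encoded. Whether core and accessory members differ was not tested.

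A pair of other properties moved with these values. The first was the GC content of the transcript. The called members had a median GC content of 41.4%, between 34.6% and 52.9%, against 51.0% for the 60 members not called. Across members the log2 fold change and the GC content correlated at r = 0.62 without doxycycline replicate 3 and at 0.64 with it (Spearman 0.62 and 0.65, 81 genes that share the same libraries), and the correlation across all genes was 0.46 and 0.62. By GC content of the transcript, the median log2 fold change over all genes ran from -0.36 under 40% to 0.43 over 60% in the 6-library fit, and from -0.18 to 0.19 without doxycycline replicate 3. The members' medians ran in parallel but lower in each of the 6 bins, from -0.53 to 0.21 and from -0.33 to 0.059. The members' canonical transcripts had a median of 763 bases, against 3404.5 for tested protein-coding genes. Across members, length and fold change correlated at only -0.042 and 0.044 (Spearman), but short protein-coding genes had lower medians too. In the bin of the shortest transcripts these were -0.13 with all libraries and -0.076 without doxycycline replicate 3, against -0.23 and -0.18 for 11 members. The next bin had -0.11 and -0.074, against -0.29 and -0.12 for 27 members. In longer bins the protein-coding medians lay between -0.070 and 0.057, and between -0.027 and 0.021. The members' medians were lower in each bin.

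**Figure D4:**
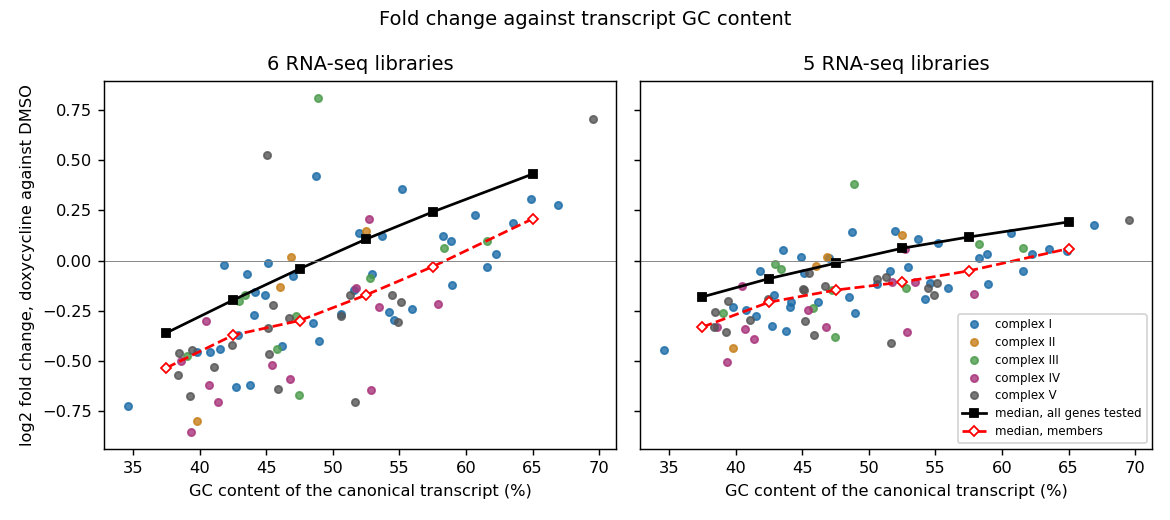
Log2 fold change of each tested member against the GC content of its canonical transcript, with all 6 libraries (left) and without doxycycline replicate 3 (right). Black squares are the medians of all genes tested in 6 bins of GC content and red diamonds those of the members, which lie below the black line in every bin.

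A fit that removes a per-library trend on GC content, added after seeing the data, moved the median over all members little and changed some calls. The members' median was -0.14 without doxycycline replicate 3 and -0.23 with it, and 15 members were called lower and 0 higher without that library, where 1.8% of all genes were called lower. Of the 21 earlier calls 11 remained, among them NDUFA4, UQCR10, COX7B, ATP5MF and NDUFA5, and 4 others were added, COX8A, ATP5MC2, NDUFB2 and NDUFB10. NDUFA5 remained at -0.23 (adjusted p = 0.0489), from -0.45, while COX6A1 no longer passed at -0.42 (adjusted p = 0.0529), from -0.36. SDHD at -0.31, COX7C at -0.23 and COX7A2L at -0.18 were also among the 10 that no longer passed. By complex, 5 calls were in complex IV, 5 in complex V, 4 in complex I and 1 in complex III. The median went from -0.058 to -0.13 in complex I, from -0.29 to -0.22 in complex IV and from -0.17 to -0.13 in complex V. A trend on GC content and length together gave 11 calls, all lower, against 1.68% of all genes. Of these, 9 were among the 21 earlier calls.

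The second was the share of counted reads entered as having more than 1 alignment. For DMSO replicates 1 to 3 it was 54.9%, 62.3% and 58.6%, and for doxycycline replicates 1 to 3 it was 65.4%, 69.9% and 88.4%. The members' median level followed it in the opposite order within the DMSO libraries, 0.076, -0.097 and 0.022. Over all 6 libraries the same order held except between doxycycline replicates 1 and 2. Genes under 40% GC moved likewise in these libraries, from 0.067 in DMSO replicate 1 to -0.88 in doxycycline replicate 3, and mitochondrial RNA took 15.8% of reads on genes in DMSO replicate 1 and 5.76% in doxycycline replicate 3. The part of these shifts in the result was not tested, and because all 3 doxycycline libraries have more multiple alignment than any DMSO library, that share and the treatment cannot be told apart.

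**Figure D5:**
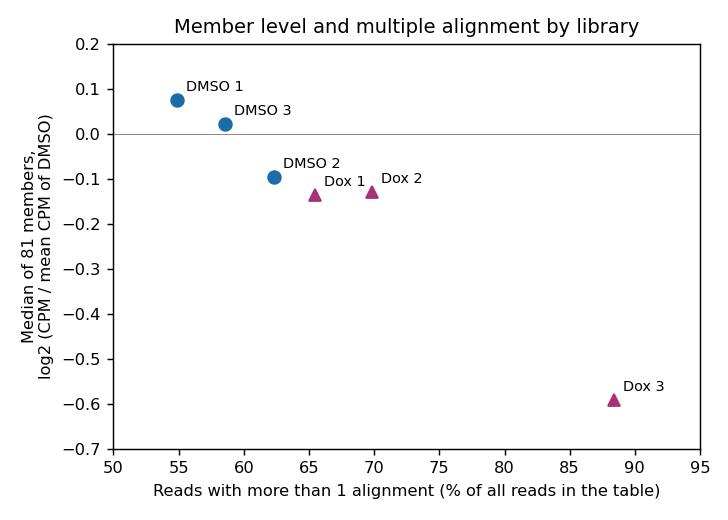
Median log2 level of the 81 members relative to the DMSO mean against the share of counted reads entered as having more than 1 alignment. Each point is 1 RNA-seq library. The DMSO libraries span 54.9% to 62.3% and the doxycycline libraries 65.4% to 88.4%, and the member level is lowest at 88.4%.

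Promoters of respiratory genes are known for sites of NRF1, GABP (an ETS factor), YY1 and ERRalpha, which coordinate mitochondrial genes. In RefSeq promoters of build GRCh38.p14 (250 bases before to 50 after the start, the first entry of each gene), 67 of 88 members matched by symbol. The letters GCGCATGC (NRF1) occurred on either strand in 19.4% of the 67 against 3.27% of 27305 promoters, AAGATGGC (YY1) in 16.4% against 3.03%, CCGGAAGT (GABP) in 13.4% against 4.44%, AAGGTCA (ERRalpha) in 11.9% against 3.97%, and GGGCGG (SP1) in 59.7% against 44.6%. The comparison set includes noncoding genes, and the NRF1 letters of both strands can overlap. Among tested members with a promoter, 13 held the NRF1 letters and had a median log2 fold change of -0.17 without doxycycline replicate 3 (4 called), and the other 50 had -0.11 (11 called). The 8 with the ERRalpha letters had -0.26 (4 called), and the other 55 had -0.12 (11 called). Of these 4 calls, SDHD and ATP5MG no longer passed with the GC content offset. For NDUFA5, also called, the letters lie at chr7:123601766-123601793, outside its GENCODE span of 123536997 to 123557904. The 9 with the GABP letters had -0.15 (1 called), and the other 54 had -0.12 (14 called). For the YY1 letters the medians were -0.13 in the 11 with them (1 called) and -0.13 in the other 52 (14 called). None of these differences was tested. The following windows, chosen to show the same letters before called and uncalled members, give the match in capitals, 5′ to 3′ on the strand of the gene, with the start of the transcript at 0.
SDHD, NRF1 letters at -110, chr11:112086754-112086781, plus strand: gctgtgtttGCGCATGCgcgacgggtgt
SDHD, GABP letters in reverse at -78, chr11:112086786-112086813, plus strand: cgcctctcgACTTCCGGttcacccagca
NDUFB4, NRF1 letters at -159, chr3:120596168-120596195, plus strand: gagcacttcGCGCATGCgcatatcaccg
NDUFB4, ERRalpha letters at -39, chr3:120596288-120596315, plus strand: ctgaagctgAAGGTCAgcatagacaaag
COX6A1, NRF1 letters at -174, chr12:120437930-120437957, plus strand: aggtgcagaGCGCATGCtctctcttgcc
COX5B, NRF1 letters in reverse at -136, chr2:97645917-97645944, plus strand: cagagctggGCATGCGCaatttccgccc
COX5B, GABP letters at -37, chr2:97646016-97646043, plus strand: agcccgcccCCGGAAGTccctcctgtct
SDHB, NRF1 letters in reverse at -200, chr1:17054214-17054241, minus strand: gccaaatggGCATGCGCcgctactgcgc
The same letters thus stood before SDHD, NDUFB4 and COX6A1, called without doxycycline replicate 3, and before COX5B and SDHB, which were not. With the GC content offset SDHD and COX6A1 no longer passed.

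Genes that act with these subunits were counted in the same fits, without doxycycline replicate 3. There 3.29% of all genes were called lower and 3.76% higher, and counts of 1 or 2 in these lists are too small to set against those shares. Of 59 tested assembly factors, which help to build the complexes, 1 was higher and 1 was lower, with a median of -0.046. This list also holds ATP5IF1, which is counted among the members. Named after their values were seen, COA5, of complex IV, fell by 0.29 and SDHAF1, of complex II, rose by 0.27 on the log2 scale. Of the 13 mitochondrially encoded subunits, 2 were lower: MT-CO3 fell by 0.61, with 824 to 1098 CPM in the DMSO libraries and 712 and 556 CPM in doxycycline replicates 1 and 2, and MT-CO1 fell by 0.23, with a median of -0.036 over the list. The 13 carriers had 0 calls, with values from -0.25 for cytochrome c (CYCS) to 0.22 for DHODH, and the 14 tricarboxylic acid cycle enzymes had 0 calls and a median of 0.028. Among 12 transcriptional regulators, 2 rose, the PGC-1 family coactivators PPRC1 (0.34, adjusted p = 0.0163) and PPARGC1B (0.26, adjusted p = 0.0315). GABPA had -0.29 and did not pass (adjusted p = 0.0526). With all 6 libraries none of these lists had a call, where 0% of all genes were called.

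The Ribo-seq libraries carried little of these genes. Over 6 libraries, with 210186 to 1002424 reads on genes, the 88 members had 167 reads, and 48 members had none. The DMSO libraries had 29, 39 and 37 reads on members and the doxycycline libraries 10, 34 and 18. Of the 88, 5 members reached 10 reads, and in each of them 1 library held more reads than the other libraries together. NDUFS4, an accessory subunit of complex I, had 24 reads, all in DMSO replicate 1. NDUFB8 had 15 reads, of which 14 were in doxycycline replicate 2, and COX6B1 had 12 of its 15 reads in the same library. CYC1 had 12 reads in 4 libraries, 8 of them in DMSO replicate 3, and COX5B had 4 in DMSO replicate 2 and 6 in doxycycline replicate 3. In the test of translation efficiency (TE, Ribo-seq relative to RNA-seq) 0 of these 5 members were called, with 0.15% of 1334 genes called lower, and in Ribo-seq alone 0 were called, with 0% of 1607 genes called lower (adjusted p-values of the same edgeR test). Before adjustment NDUFB8 was the 1 member with a p under 0.05 in each test, and edgeR's likelihood ratio test called 2 members in TE, 1 in each direction. The share of all genes called by the likelihood ratio test is not given here. No fold is given for reads that sit in 1 library. The members took 0.00113% to 0.0138% of Ribo-seq reads on genes, against 0.641% to 0.753% in RNA-seq, and why they have so few RF reads was not tested. The other 83 members were too low to test. A level of 3 reads corresponds to 2.99 to 14.3 CPM in these libraries.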

How the data were processed

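RNA-seq and Ribo-seq were available for 6 samples of 1 cell line, 3 per group, and groups followed the sample labels. The deposited counts are raw reads per gene made by the authors, who trimmed the RF reads, removed ribosomal RNA, mapped with STAR to GRCh38 and kept uniquely aligned reads on exons. The labels name GRCh37 and Ensembl annotation, and the strand setting and versions are not given in the sources used here. Symbols came from the table of translation efficiency, whose dispersions, p-values and ratios are the authors' own results and were not used. Spike-in, viral and unassigned rows stayed out of library sizes and tests.

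Tested genes had 10 or more reads in 3 or more libraries (TE and Ribo-seq: 10 reads summed per assay), and the test was edgeR 4.0.16's quasi-likelihood F-test, TMM scaling and Benjamini-Hochberg adjustment at 0.05 over all genes (R 4.3.3, limma 3.58.1, DESeq2 1.42.0). An exact permutation test of 3 against 3 libraries cannot go below p = 0.1, so none is given. Transcripts, GC content and coordinates are from GENCODE release 44 (GRCh38). The RNA-seq fits were tested on simulated data. Replicate numbers were not treated as pairs.

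The members, lists and tests were chosen with earlier results of these data known. The members named are the 2 highest and 2 lowest of each complex in the 6-library fit, the core catalytic members, the isoform groups, the 5 with the most RF reads and the 10 with the smallest p in the 5-library fit. Members named beyond these were chosen after their values were seen. Other lists are given as counts with a few examples. Intervals and limits cover counting error only.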

Additional observations from a re-analysis of the deposited data

How the results depend on the processing

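With all 6 RNA-seq libraries, the call of 0 members held under DESeq2 size factors, library totals, both other read filters, DESeq2's Wald test, the likelihood ratio test, the replicate block, the protein-coding set and the offsets for length and GC content. It changed to 44 with voom quality weights, where doxycycline replicate 3 had the lowest weight, 0.0831. Leaving out each replicate in turn gave 0 to 21, the highest without doxycycline replicate 3, and medians of -0.31 to -0.13. The medians of both comparisons moved by less than 1 SD between replicates in each alternative. With all 6 libraries this SD is wide, since doxycycline replicate 3, at -0.59, lies far from replicates 1 and 2, at -0.14 and -0.13. Even the move from -0.24 to -0.13 without that library stayed within it. The rule therefore says little about how stable the 6-library median is. Library totals moved the median of all genes to 0.097, with the members at -0.14. Of the 21 calls without doxycycline replicate 3, 13 remained with library totals. With a GC content and length offset 9 of the 21 remained, among 11 calls. The replicate numbers do not mark pairs in the labels, and deviations of same-numbered libraries correlated at 0.25, -0.20 and 0.024. With the replicate block this comparison gave 37 calls, 32 lower and 5 higher, in place of 21, and it changed no other count. Leaving out a DMSO library as well gave 6 to 33 calls. A fit with a lone doxycycline library assumes that it varies like the DMSO libraries, so no count is given for it. In TE, the likelihood ratio test gave 2 calls. For library totals, the replicate block, the fits without a DMSO library as well and this TE test, the share of all genes called is not given here. Their counts are therefore no results about the members. With at least 60 RF reads no member remained, so no value was computed for TE or Ribo-seq. Named members whose uncalled sign reversed were SDHC (-0.022 without a filter, -0.0040 to 0.047 with 1 library left out, -0.0017 with the length offset), CYC1 (-0.23 with the GC offset, -0.16 with GC and length), ATP5MGL (-0.090 with voom weights, -0.14 to 0.94 with 1 library left out, the lowest without doxycycline replicate 3), NDUFS1 (0.078 with library totals, -0.054 to 0.010 with 1 library left out, 0.033 with the length offset, 0.21 with GC, 0.18 with GC and length), NDUFV1 (-0.091 with GC, -0.050 with GC and length) and UQCRFS1 (0.00095 with GC and length). The causes were not tested. With 167 RF reads on 88 members, Ribo-seq allows no statement on most of them.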
